A study of Rattus norvegicus with 3 samples.

Results

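The genes described here encode proteins of the mitochondrial ribosome, and were taken as all named genes whose symbol on the array starts with Mrpl or Mrps followed by a number. They came to 66 of 15037 named genes, 42 of them for the large subunit (Mrpl) and 24 for the small subunit (Mrps), with 1 probe set each. They were measured in FRSK cells, a keratinocyte line from the skin of fetal rats, on 3 Affymetrix whole-transcript arrays. Unstimulated cells gave the control array, cells given Met-ENK (Met-enkephalin, an opioid pentapeptide) at 100 nM for 24 h the second, and cells given β-END(1-9), an N-terminal fragment of β-endorphin, at the same dose and time the third. All 3 cultures were of the same line, without any genetic change named in the labels, and the sources used here do not give whether the control received vehicle. With 1 array per group no difference below has a replicate check, so no test was run and no error can be given. A lower signal in a culture cannot be assigned to fewer cells that use a gene or to less RNA per cell.

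Mitochondria translate the few proteins encoded by their own DNA, all of them subunits of the respiratory chain or ATP synthase, on a ribosome of their own. Its ribosomal RNAs come from mitochondrial DNA, whereas its proteins are encoded in the nucleus, made in the cytosol and imported. Many have a counterpart in bacterial ribosomes and the others are found in mitochondria alone. The small subunit reads the messenger RNA, and the large subunit joins the amino acids and passes the chain through its tunnel to the inner membrane.

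Signals are log2 values, and probe sets differ in how brightly they report, so each gene was compared with itself across arrays and not with other genes. A gene entered the counts when its mean over the 3 arrays was at least 6.41, the median of all named genes. This level filter was passed by 59 members, 40 of the large and 19 of the small subunit, and by 7519 named genes in all. The array's background probe sets reached 7.57, and 49 members were above that value on all 3 arrays. Those below it on all 3 were 9 large-subunit and 6 small-subunit genes, among them Mrpl52, Mrps34, Mrps16, Mrps12 and Mrps26. Of the keratinocyte markers, 5 of 10 were measured and lay between 13.69 (Itgb4) and 17.45 (Perp) on the control array, while 0 of 4 immune and 0 of 5 endothelial markers measured passed the filter. Of 7 fibroblast markers Col1a1 (8.28 in control cells) and Col3a1 (8.53) passed it, and of 4 melanocyte markers Mitf (9.76) did.

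In most mitochondrial ribosomal protein genes the Met-ENK array gave a lower signal than control. Of the 59 members passing the filter, 51 were lower, 8 had exactly the same signal on both arrays and 0 were higher, where 45.7% of all genes passing the filter were lower. Over all 66 members 57 were lower, 9 equal and 0 higher, where 35.9% of all named genes were lower, 26.9% equal and 37.3% higher. The members' counts became 56 lower and 10 higher after quantile normalization or cyclic loess and 66 lower after median centring. At 1.5-fold (0.58 on the log2 scale) or more, 19 of the 59 (32.2%) were lower and 0 were higher, beside 6.02% and 0.692% of all genes. At 2-fold, 5 of the 59 were lower, beside 0.745% of all genes. The median log2 difference over all 66 members was -0.40, against 0.00 over all named genes, and it lay between -0.46 and -0.33 under every alternative processing tried.

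**Figure D1:**
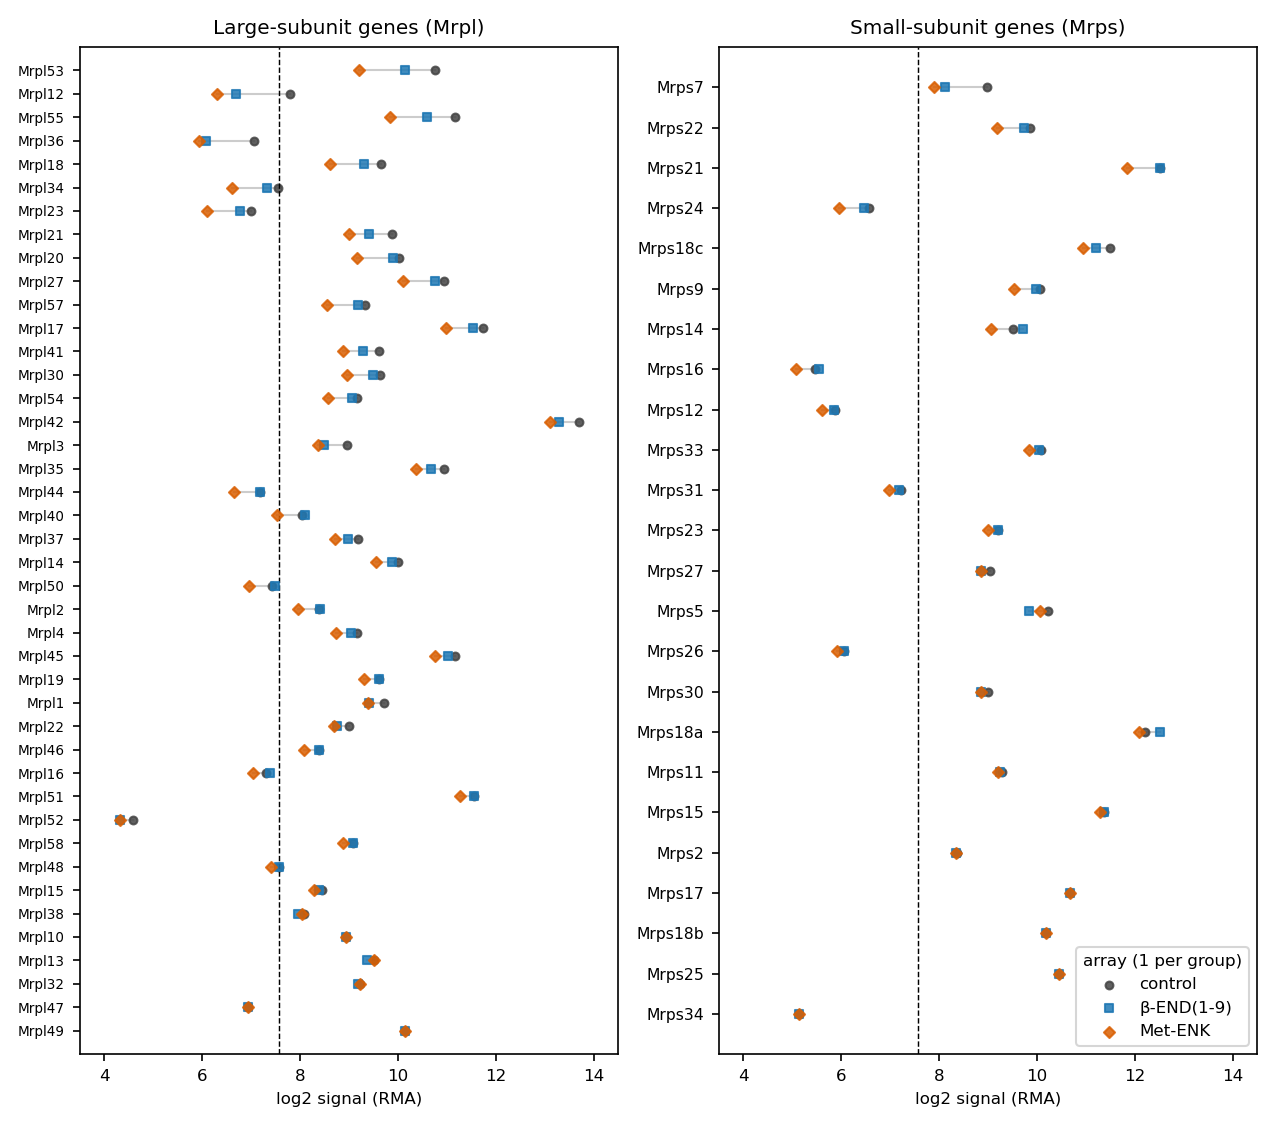
Log2 signals of the 66 members on the control (grey circles), β-END(1-9) (blue squares) and Met-ENK (orange diamonds) arrays, 1 array per group, with large-subunit genes on the left, small-subunit genes on the right and the largest Met-ENK deficit at the top; the dashed line is the highest background probe set (7.57). Met-ENK symbols lie left of the other arrays for most genes of the upper part, such as Mrpl53, and coincide with them for 7 genes such as Mrps17.

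The large subunit held the members furthest below control with Met-ENK. Mrpl53, a protein of the mitochondrial large subunit without a bacterial counterpart, gave log2 signals of 10.75 in control cells, 10.14 after β-END(1-9) and 9.21 after Met-ENK. Its difference between Met-ENK and control, -1.54, was the third lowest of the 7519 genes passing the filter. Mrpl12, which corresponds to the bacterial stalk protein that brings translation factors to the ribosome, had 7.80, 6.70 and 6.30 in the same order, and its Met-ENK difference was -1.51. Both peptide arrays of Mrpl12 lay under the highest background probe set, which limits how well its difference can be sized. Mrpl10, which anchors the stalk, had 8.94 on all 3 arrays.

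Mrpl55 had 11.17 in control cells, 10.59 after β-END(1-9) and 9.84 after Met-ENK, a Met-ENK difference of -1.33 well above background. Mrpl18, whose bacterial counterpart binds ribosomal RNA in the crown of the large subunit, had 9.67, 9.30 and 8.62, a difference of -1.05. In each of these genes the β-END(1-9) array lay between the control and the Met-ENK array. Mrpl36, related to the smallest bacterial large-subunit protein, had 7.07, 6.08 and 5.94, differed by -1.13 with Met-ENK and did not pass the level filter. Mrpl20, Mrpl27 and Mrpl17, which all have bacterial counterparts, differed by -0.85, -0.83 and -0.76 with Met-ENK. Their differences from control with β-END(1-9) were smaller, at -0.12, -0.18 and -0.21 in the same order. Mrpl20, for example, had 10.02 and 9.90 on the control and β-END(1-9) arrays against 9.17 with Met-ENK.

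The remaining large-subunit genes at least 1.5-fold lower with Met-ENK and passing the filter were Mrpl34 (-0.95), Mrpl23 (-0.90), Mrpl21 (-0.88), Mrpl57 (-0.77), Mrpl41 (-0.74), Mrpl30 (-0.68), Mrpl54 (-0.60), Mrpl42 (-0.60) and Mrpl3 (-0.59). Mrpl23 belongs to the rim of the exit tunnel, and Mrpl3 reaches towards the centre where peptide bonds form. Mrpl34 and Mrpl23 were within the background range on all 3 arrays. Mrpl35, at -0.58, was the next below the limit, so the count of 16 large-subunit genes rests partly on members close to it. Mrpl3, Mrpl54 and Mrpl42 went under 1.5-fold after quantile normalization (-0.50, -0.52 and -0.56).

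In the small subunit, 3 of the 19 genes passing the filter were at least 1.5-fold lower with Met-ENK. Mrps7, whose bacterial counterpart organises the head of the small subunit, had 8.98 in control cells, 8.13 after β-END(1-9) and 7.90 after Met-ENK, so that both peptide arrays were below control (-0.85 and -1.08). Mrps22, a mitochondria-specific protein, had 9.86, 9.74 and 9.18, and only its Met-ENK signal stood clearly below (-0.69). Mrps21 had 12.52 on the control and on the β-END(1-9) array and 11.85 with Met-ENK (-0.67), and was under 1.5-fold once the trend along gene span was removed (-0.57). Mrps24 differed by -0.62 but did not pass the filter, with 6.58 in control cells. Mrps12, the decoding-site protein, had 5.87, 5.86 and 5.60 and could not be separated from background.

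The large-subunit genes had the lower median difference with Met-ENK. The median over all measured genes was -0.47 for the 42 Mrpl genes and -0.20 for the 24 Mrps genes, a gap of -0.27, which was between -0.29 and -0.24 in the alternatives tried. Past 1.5-fold the shares were 16 of 40 (40.0%) and 3 of 19 (15.8%), both above the 6.02% of all genes. Genes are not replicates of a condition, so the gap between subunits has no test. Symbols do not always follow position, since the products of Mrps30 and Mrps18a sit in the large subunit. Both differed little with Met-ENK (-0.13 and -0.12), and counting them as large left the gap at -0.24.

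**Figure D2:**
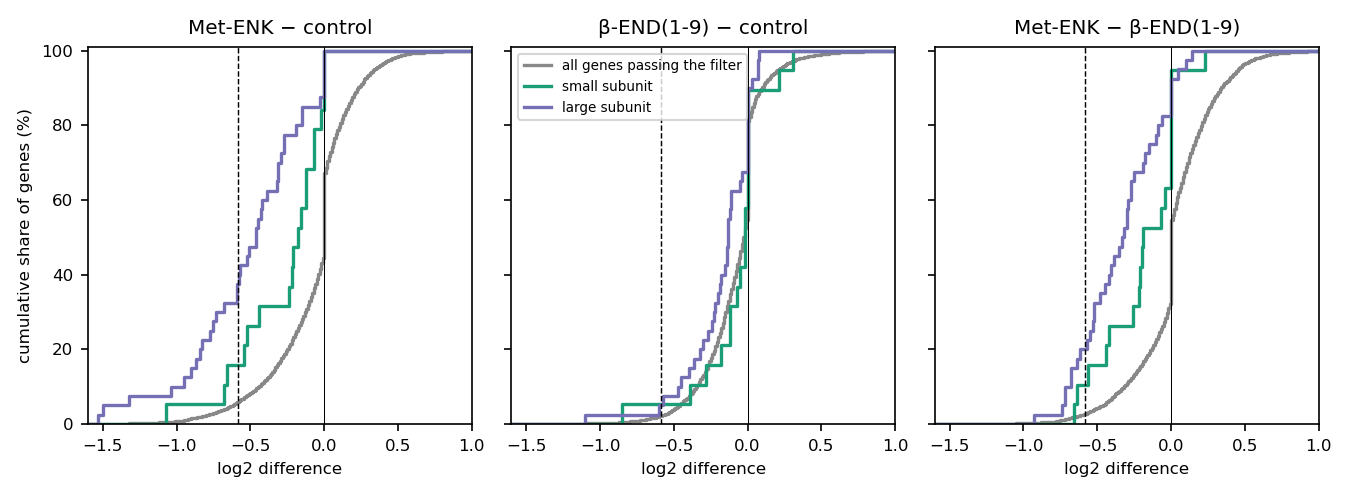
Cumulative share of genes (y axis, %) with a log2 difference at or below the value on the x axis, for large-subunit members (40 genes, purple), small-subunit members (19 genes, green) and all 7519 genes passing the level filter (grey), in the 3 comparisons; the dashed line marks 1.5-fold lower. At that line the Met-ENK against control panel reads 40.0% for the large subunit, 15.8% for the small subunit and 6.02% for all genes.

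Members with a bacterial counterpart and those specific to mitochondria both had medians below 0 with Met-ENK. The median was -0.44 for the 40 members with a counterpart and -0.27 for the 26 without, and at 1.5-fold 13 of 36 and 6 of 23 passing the filter were lower, beside the 6.02% of all genes. Among members above the background probe sets on all 3 arrays the counts were 10 of 31 (32.3%) and 6 of 18 (33.3%). Of all genes above those probe sets 5.6% were at least 1.5-fold lower. The order of the 2 classes thus did not hold there. Within the large subunit the medians were -0.58 for 25 genes with a counterpart and -0.46 for 17 without. Within the small subunit they were -0.27 for 15 and -0.19 for 9, so in both classes the large subunit had the lower median. Mrpl44, a protein with a ribonuclease fold, had 7.18 on the control and the β-END(1-9) array and 6.65 with Met-ENK, all within the background range. Mrpl45, which ties the tunnel exit to the inner membrane, had 11.16, 11.02 and 10.77, and Mrpl58, which kept the activity of a peptidyl-tRNA hydrolase, had 9.08, 9.08 and 8.89. The Met-ENK differences of these last genes, -0.40 and -0.20, did not reach 1.5-fold.

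Some members had the same deposited value on every array, as did other genes. Mrpl10, Mrpl47, Mrpl49, Mrps17, Mrps18b, Mrps25 and Mrps34 had 1 value on all 3 arrays. Of the 59 members passing the filter this held for 6 (10.2%), near the 11.8% of all genes passing it. Equal values are thus no trait of these members, and whether their RNA was unchanged was not tested. Mrpl13 and Mrpl32 had the same signal on the control and Met-ENK arrays and differed by -0.14 and -0.05 with β-END(1-9). The related genes of the Mrps18 family also parted. Mrps18c had 11.50 in control cells, 11.22 after β-END(1-9) and 10.95 after Met-ENK, Mrps18b had 10.18 on each, and Mrps18a had 12.22, 12.52 and 12.10.

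With β-END(1-9), mitochondrial ribosomal protein genes differed less from control. Of the 59 members passing the filter, 39 were lower, 14 equal and 6 higher, where 56.1% of all genes were lower. Over all 66 members 43 were lower and 7 higher, where 39.5% and 30.8% of all named genes were. The members' counts became 38 and 28 after quantile normalization, 39 and 27 after cyclic loess and 60 and 6 after median centring. At least 1.5-fold lower were Mrpl12 (-1.11), Mrps7 (-0.85) and Mrpl53 (-0.61), which is 3 of 59 (5.08%) beside 2.27% of all genes, and 0 were at least 1.5-fold higher, beside 0.559%. Mrpl36, below the filter, differed by -0.99. Mrpl53 was under 1.5-fold after quantile normalization and after loess scaling (-0.52 and -0.54). The median over all members was -0.11 (-0.03 after quantile normalization), with -0.14 for the large and -0.01 for the small subunit, and the small-subunit median turned to 0.01 and 0.004 under those scalings. Since both peptide arrays were compared with the same control array, the values of Mrpl12, Mrps7, Mrpl53 and Mrpl36 below control in both are not independent.

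The peptide arrays can also be set against each other, without the control array. On the Met-ENK array 46 of the 59 members passing the filter were lower than on the β-END(1-9) array, where 33.0% of all genes were, and 10 of 59 (16.9%) were at least 1.5-fold lower, beside 2.70%. At least 1.5-fold higher were 0, beside 1.89%. Over all 66 members 51 were lower and 4 higher, where 34.1% and 39.1% of all named genes were. The members' counts became 59 and 7 after quantile normalization or cyclic loess and 50 and 16 after median centring. The 10 genes were Mrpl53 (-0.93), Mrpl55 (-0.75), Mrpl20 (-0.73), Mrpl34 (-0.72), Mrpl18 (-0.69), Mrpl23 (-0.68), Mrps21 (-0.67), Mrpl27 (-0.65), Mrps14 (-0.64) and Mrpl57 (-0.63), of which Mrpl57 was under 1.5-fold with the span trend removed (-0.53). Mrps14, a protein of the small-subunit head, had 9.52 in control cells, 9.72 after β-END(1-9) and 9.08 after Met-ENK, so its place here comes from both peptide arrays. Mrps5 was the member highest with Met-ENK relative to β-END(1-9), by 0.23, with 10.24, 9.84 and 10.07. The median was -0.27 over all members, -0.32 for the large and -0.20 for the small subunit. Met-ENK gave the lowest of the 3 signals in 46 of 59 members, beside 27.9% of all genes. Since 0 of the 59 were higher with Met-ENK than control, this largely repeats the count against β-END(1-9).

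Genes of short span had lower differences with Met-ENK than longer ones, and the members are short. The genomic span, the stretch of chromosome a gene covers in the RefSeq annotation of GRCr8, had a median of 6.17 kb for the 66 members and 22.8 kb for genes passing the filter. Genes passing the filter were split by span into 5 groups of equal size. In the group of shortest spans (up to 8.05 kb), 14 of 33 members (42.4%) were at least 1.5-fold lower with Met-ENK, against 13.6% of all genes of that size. In the next group it was 2 of 16 members against 7.78%, in the middle group 3 of 6 against 4.86%, and in the groups of longer spans 0 of 3 against 2.39% and 0 of 1 against 1.53%. Among the shortest genes the medians were -0.58 for 25 large-subunit and -0.28 for 8 small-subunit members, beside -0.09 for all genes. With the trend along span removed over genes passing the filter, the member median was -0.33 and 15 members were at least 1.5-fold lower. Mrpl3 (-0.56), Mrpl42 (-0.57), Mrpl54 (-0.46) and Mrps21 (-0.57) were then under the limit. Across the 66 members the Met-ENK difference and log span had a Pearson correlation of 0.29 and a Spearman correlation of 0.23, as a description of genes measured on the same arrays. The array's 399 positive-control probe sets had a median difference from control of -0.23 (Met-ENK) and -0.12 (β-END(1-9)), and its 1153 negative-control probe sets had 0.09 and 0.03. The part of what moved these control probe sets in the members' differences was not tested.

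**Figure D3:**
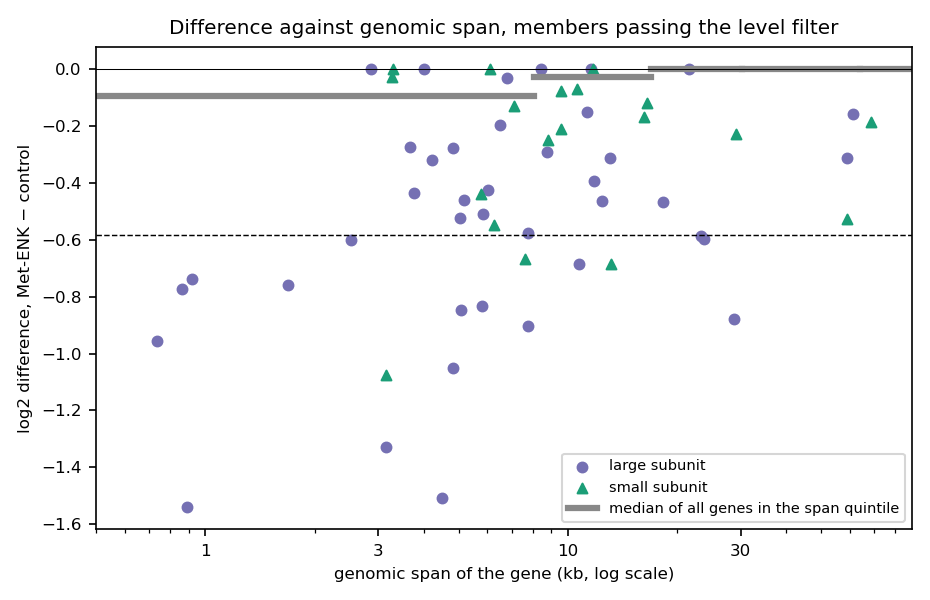
Log2 difference between the Met-ENK and control arrays (y axis) against genomic span in kb (x axis, log scale) for the 59 members passing the level filter, with purple circles for the large and green triangles for the small subunit; grey bars are the median of all genes in each of the 5 span groups and the dashed line is 1.5-fold lower. Most members lie below the grey bars, which go from -0.09 for the shortest genes to 0.00.

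The mitochondrial ribosome has further subunits whose symbols do not follow the Mrp pattern, and 5 of 5 were measured. Aurkaip1, a small-subunit protein, had 12.32 in control cells, 11.94 after β-END(1-9) and 11.25 after Met-ENK, a Met-ENK difference of -1.07. Chchd1 of the small and Gadd45gip1 of the large subunit differed by -0.42 and -0.41 with Met-ENK and by -0.37 and -0.34 with β-END(1-9). Dap3 and Ptcd3, both of the small subunit, had Met-ENK differences of 0.00 and 0.21.

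Genes for proteins that work with the mitochondrial ribosome without being part of it had Met-ENK medians nearer to 0 than the 66 members (-0.40). These genes were also longer. The median span was between 10.8 kb (membrane insertion) and 29.1 kb (regulators of biogenesis) in the lists of such genes, against 6.17 kb for the members. The part of span in this contrast was not tested. The 13 measured translation factors had a median of 0.00 with Met-ENK. Past 1.5-fold against control were 0 of the 11 passing the filter, where 6.02% of all genes were lower and 0.692% higher. In lists this short a count of 0 is near those shares. Tufm, the mitochondrial elongation factor that delivers tRNAs, had 9.08 in control cells, 9.46 after β-END(1-9) and 8.75 after Met-ENK, a difference of -0.72 between the peptides. Mtif3, an initiation factor, differed by -0.37 after β-END(1-9) and -0.49 after Met-ENK. The 15 aminoacyl-tRNA synthetase genes, whose products charge mitochondrial tRNAs, had a median of -0.11 with Met-ENK. Past 1.5-fold were 0 of the 13 passing the filter, again near the shares of all genes. Among them Nars2, for asparagine, had 7.83 in control cells, 7.42 after β-END(1-9) and 7.68 after Met-ENK, and Vars2, for valine, had 4.85, 5.22 and 4.41, below the filter.

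Assembly and RNA-modifying factors of the mitochondrial ribosome (24 measured) had a median of -0.04 with Met-ENK, and 2 of the 21 passing the filter (9.52%) were at least 1.5-fold lower, near the 6.02% of all genes. These were Eral1 (-0.74), a chaperone of the small-subunit ribosomal RNA, and Malsu1 (-0.72), a large-subunit assembly factor. Malsu1 differed by -0.70 with β-END(1-9) too, with signals of 8.02, 7.33 and 7.31. Rpusd4, a pseudouridine synthase below the filter, had 6.19 on the control array and 5.40 and 5.39 with β-END(1-9) and Met-ENK. The 18 measured factors of mitochondrial transcription and RNA processing had a median of -0.13 with Met-ENK. Of the 17 passing the filter, Trmt10c, a subunit of mitochondrial RNase P, was the 1 gene (5.88%) at least 1.5-fold lower, again near 6.02%. It differed by -0.63 with Met-ENK and -0.76 with β-END(1-9). Mterf1, a mitochondrial transcription terminator, had 8.70 on the control and β-END(1-9) arrays and 8.14 with Met-ENK.

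The 4 measured genes of membrane insertion had a median of -0.26 with Met-ENK, further from 0 than the -0.20 of the Mrps genes. At least 1.5-fold lower were 0, which in 4 genes is near the 6.02% of all genes. Oxa1l, which inserts newly made proteins at the ribosome into the inner membrane, differed by -0.56 with Met-ENK, Timm21 by -0.54, Cox18 by 0.07 and Letm1 by 0.02. Regulators of mitochondrial biogenesis (10 measured) had medians of -0.01 and -0.20, and 0 of the 8 passing the filter were past 1.5-fold. Nrf1, a transcription factor for nuclear genes of mitochondrial proteins, had 12.41 in control cells, 12.30 after β-END(1-9) and 12.48 after Met-ENK, and Gabpa, the DNA-binding ETS subunit of GA-binding protein, had 12.25, 12.01 and 12.30. Other abundant mitochondrial proteins (13 measured) had a median of -0.18 with Met-ENK, with 10 genes lower and 3 higher. At least 1.5-fold lower were 2 of 13 (15.4%), beside 6.02% of all genes. These were Vdac2 and Tomm40, of the outer membrane, which each differed by -0.80.

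Cytosolic ribosomal protein genes and complex I genes, which also encode subunits of large complexes, were mostly lower with Met-ENK. This held for 72 of 77 and 31 of 34 genes, where 35.9% of all named genes were lower. Both lists were taken by symbol and not checked gene by gene. They hold Ndufa4 (-0.91) and Rps7-ps20 (-0.61), which count among the genes at least 1.5-fold lower. The median with Met-ENK was -0.47 for the 77 genes with cytosolic ribosomal protein symbols. It was -0.42 for the 34 with complex I symbols, beside -0.47 for Mrpl and -0.20 for Mrps genes. At least 1.5-fold lower were 25 of 72 cytosolic ribosomal protein genes and 11 of 32 complex I genes passing the filter. These are 34.7% and 34.4%, beside 32.2% of mitochondrial ribosomal protein genes and 6.02% of all genes passing the filter. Among complex I genes Ndufb5 had 13.13 in control cells, 13.01 after β-END(1-9) and 12.18 after Met-ENK. With β-END(1-9) the medians were -0.13 and -0.05 (0.02 for complex I after quantile normalization), beside -0.14 for Mrpl and -0.01 for Mrps genes. Both sets are short like the members, with median spans of 3.25 kb (cytosolic) and 7.07 kb (complex I), beside 6.17 kb. No difference between these sets and the mitochondrial ribosomal protein genes was tested, nor was the part of span in their differences. Cytosolic ribosomal protein genes, with near-identical copies in the genome, are uncertain as single probe sets.

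**Figure D4:**
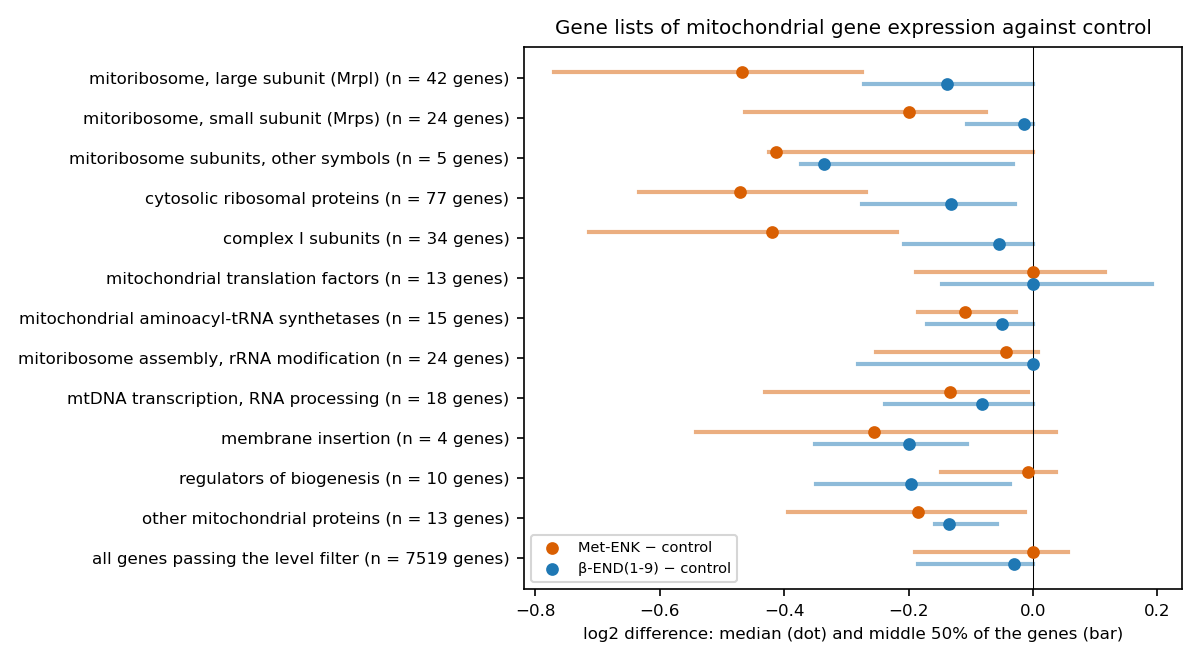
Median log2 difference (dots) and the range of the middle 50% of genes (bars) against control for Met-ENK (orange) and β-END(1-9) (blue), in gene lists of mitochondrial and cytosolic translation and in all 7519 genes passing the level filter; n is the number of measured genes. Medians with Met-ENK lie at -0.47, -0.47 and -0.42 for large-subunit, cytosolic ribosomal protein and complex I genes, and at 0.00 for mitochondrial translation factors.

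Promoters of nuclear genes for mitochondrial proteins often carry sites for nuclear respiratory factors, and some are shown here for the members furthest below control. RefSeq windows from 250 bases before to 50 bases after the gene start (build GRCr8) were found for 55 of the 66 members. The NRF1 motif was present on either strand in 9 of the 55 (16.4%), beside 12.0% of genes passing the filter and 4.25% of all windows. CCGGAAG, for ETS factors, was in 19 (34.5%), beside 21.5% and 8.75%, and the YY1 motif in 6 (10.9%), beside 2.34% and 0.675%. TCAAGGTCA, for the ERR receptors, was in 0 of 55, beside 0.126% and 0.433%. A match is a description of the letters only. The median Met-ENK difference was -0.46 for members with the NRF1 motif and -0.41 for those without, -0.55 and -0.40 for the ETS motif, and -0.24 and -0.43 for YY1.

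The 6 windows below are those of the 4 members furthest below control with Met-ENK among members passing the filter, followed by Mrpl57 (-0.77) and Mrps18b (0.00), which carry both the NRF1 and the ETS motif and were added after their values were seen. Capitals mark matches to the motifs above on either strand, and each runs 5′ to 3′ on the gene's strand.
Mrpl53, chr4:117172793-117173092, plus strand: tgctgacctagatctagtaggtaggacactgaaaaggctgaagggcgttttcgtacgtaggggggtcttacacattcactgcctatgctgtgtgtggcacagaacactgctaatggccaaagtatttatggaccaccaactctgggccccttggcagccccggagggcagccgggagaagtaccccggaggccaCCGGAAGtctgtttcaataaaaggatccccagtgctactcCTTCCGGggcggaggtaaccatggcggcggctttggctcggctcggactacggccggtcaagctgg
Mrpl12, chr10:106256496-106256795, plus strand: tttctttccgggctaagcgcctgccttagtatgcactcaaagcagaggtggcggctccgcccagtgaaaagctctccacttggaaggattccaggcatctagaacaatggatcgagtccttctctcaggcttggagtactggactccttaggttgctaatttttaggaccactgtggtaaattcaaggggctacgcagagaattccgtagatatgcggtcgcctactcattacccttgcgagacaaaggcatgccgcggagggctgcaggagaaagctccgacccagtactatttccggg
Mrpl55, chr10:44488003-44488302, plus strand: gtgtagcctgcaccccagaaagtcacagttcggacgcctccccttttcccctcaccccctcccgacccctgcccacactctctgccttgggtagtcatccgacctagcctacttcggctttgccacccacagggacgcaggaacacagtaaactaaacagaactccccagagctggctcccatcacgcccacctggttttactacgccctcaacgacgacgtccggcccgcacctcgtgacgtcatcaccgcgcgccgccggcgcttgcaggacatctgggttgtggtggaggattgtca
Mrps7, chr10:101342392-101342691, plus strand: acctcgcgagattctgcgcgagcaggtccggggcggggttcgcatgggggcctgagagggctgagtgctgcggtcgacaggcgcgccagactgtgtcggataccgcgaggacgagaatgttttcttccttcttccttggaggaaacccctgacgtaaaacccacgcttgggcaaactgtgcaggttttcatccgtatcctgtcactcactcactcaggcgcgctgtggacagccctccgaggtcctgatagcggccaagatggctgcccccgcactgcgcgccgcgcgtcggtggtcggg
Mrpl57, chr15:36086207-36086506, plus strand: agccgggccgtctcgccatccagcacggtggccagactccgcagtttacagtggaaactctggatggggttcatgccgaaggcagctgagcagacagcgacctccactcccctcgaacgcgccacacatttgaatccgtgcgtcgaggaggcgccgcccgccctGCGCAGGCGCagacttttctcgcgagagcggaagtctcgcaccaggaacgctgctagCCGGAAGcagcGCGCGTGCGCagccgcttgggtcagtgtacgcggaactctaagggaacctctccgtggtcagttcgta
Mrps18b, chr20:2842756-2843055, plus strand: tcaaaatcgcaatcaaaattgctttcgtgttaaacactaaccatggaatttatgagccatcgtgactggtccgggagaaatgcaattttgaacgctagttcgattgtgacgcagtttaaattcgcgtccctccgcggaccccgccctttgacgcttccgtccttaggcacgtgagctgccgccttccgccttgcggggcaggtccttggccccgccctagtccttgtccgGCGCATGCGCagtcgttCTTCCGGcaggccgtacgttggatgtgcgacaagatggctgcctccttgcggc

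Mrpl53 holds 2 ETS matches near its start, and the windows of Mrpl12, Mrpl55 and Mrps7 hold none of the 4 motifs. Mrpl57 holds 2 NRF1 matches and 1 ETS match. Mrps18b holds 1 of each. Whether any of these motifs bears on the members' differences was not tested.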

How the data were processed

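The authors deposited 1 log2 signal per probe set and array, and RMA, Affymetrix Expression Console and Transcriptome Analysis Console are listed in the submitters' processing notes. RMA is a method that corrects background, quantile-normalizes and summarises probes. The sources used here do not give versions, roles or the array's genome build. Signals of 23188 transcript clusters were used as deposited, and 15049 of them had 1 gene symbol in the platform annotation, for 15037 genes. Of several probe sets the one of highest mean was taken. Every comparison is a difference of log2 signals between 2 arrays, with no test because each group has 1 array, a number that limits the precision of every value. The limit of 1.5-fold, the gene lists, the members and the rule for named members (those past 1.5-fold, the least different, the extremes of level and those of special function) were chosen with earlier results of these data known. Scaling alternatives and the span trend (lowess, fraction 0.3) were computed in Python 3.11.15 with statsmodels 0.14.6 and checked on simulated data. Coordinates and spans come from RefSeq, build GRCr8.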

Additional observations from a re-analysis of the deposited data

How the results depend on the processing

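The direction of the 3 member medians and of the 3 gaps between the subunits held under quantile normalization, median centring, loess scaling, removal of the span trend, either filter on low signals, the mean in place of the median and, for the gaps, moving Mrps30 and Mrps18a. At 2-fold in place of 1.5-fold fewer genes reach the limit. The members lower then numbered 5 of 59 for Met-ENK against control, beside 0.745% of genes passing the filter. They numbered 1 for β-END(1-9) against control and 0 for Met-ENK against β-END(1-9), each beside 0.213%. In 59 members, counts of 1 and 0 are near that share. At 1.5-fold under the other settings the counts of the 3 comparisons were 15 to 21, 2 to 4 and 8 to 13. Among all genes passing the filter the shares were 4.51% to 6.62%, 1.52% to 2.86% and 2.54% to 3.32% across the scaling alternatives. In any setting 0 members were at least 1.5-fold higher. After quantile normalization 16 members passing the filter were at least 1.5-fold lower with Met-ENK, beside 4.51% of genes. The alternatives with the span trend fitted on genes passing the filter, members above background and members of unequal signal were chosen after seeing the data. Signals within the background range limit 17 members on at least 1 array. Each member has 1 probe set, so choosing another could not be tried. Leaving out a replicate was not possible with 1 array per group. For the same reason there were no replicates to pair.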

Other observations

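Of the 66 members, 7 were higher with β-END(1-9) than on the control array, by 0.03 to 0.30, which is 10.6% beside 30.8% of all named genes. All 7 were lower than control with Met-ENK, as were 57 of the 66 members. After quantile normalization 28 members were higher with β-END(1-9), so this set depends on the scaling. The 7 genes were Mrpl2, Mrpl16, Mrpl40, Mrpl50, Mrps14, Mrps16 and Mrps18a. Of these, Mrpl16, Mrpl50 and Mrps16 were within the background range on all 3 arrays and Mrpl40 on the Met-ENK array (7.53). Mrps16 also did not pass the level filter. Mrps18a, whose product sits in the large subunit, differed by 0.30 with β-END(1-9) and -0.12 with Met-ENK, and Mrps14 by 0.20 and -0.44. The outer-membrane import pore gene Tomm40 had 11.42 in control cells, 11.17 after β-END(1-9) and 10.61 after Met-ENK. These are values of single arrays.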
